A study of Oryctolagus cuniculus with 16 samples.

Results

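The genes described here make cholesterol or set how much of it a cell makes. They were chosen by name, as *HMGCS1*, *FDFT1*, *SQLE*, *LSS* and *DHCR7* for the enzymes and *SREBF2* and *INSIG1* for their control. No receptor is among them, and the genes of LDL uptake are given further on as related genes. Of these 7 genes, 6 were found by symbol among the 20255 genes of the count table, and all 6 passed the low-count filter that left 15305 genes for testing. *DHCR7*, which codes for the reductase of the last step, was not found under that symbol and has no value here.

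Total RNA of the femoral head was sequenced from 5 rabbits in which Perthes disease had been induced (Perthes rabbits) and from 3 controls. The model was surgical: in rabbits 8 weeks old, the femoral neck was tied with a suture that does not dissolve, and the ligamentum teres was cut, which blocks blood flow to the epiphysis. The labels write Perthes' disease or WT as a genotype, although the methods describe bought wild-type rabbits and no genetic change, and the sources used here do not give the time from surgery to sampling, the handling of the controls or the age at which their tissue was taken. The third control is coded 3 in its title, which also calls it replicate 2, and it was taken as control rabbit 3.

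Animal cells build cholesterol from acetyl-CoA. HMG-CoA synthase acts at the start of the mevalonate pathway, squalene synthase commits its product to sterols, squalene epoxidase adds oxygen, and lanosterol synthase closes the rings. The transcription factor SREBP2, encoded by *SREBF2*, switches on the genes of this route and of lipoprotein uptake when membrane sterols are low. INSIG1 holds SREBP2 and its escort SCAP in the endoplasmic reticulum when sterols are plentiful. Cells that engulf debris can take in cholesterol in place of making it, release it in lysosomes, and pass it on by export or store it as esters.

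The libraries held 26757087 to 29461482 counts, and the 6 genes had between 508 and 5864 counts in each, so counting error was small beside the differences between rabbits. Values are given as CPM, a gene's counts relative to the size of its library after TMM scaling in edgeR. Log2 fold changes are Perthes over control, with a standard error (SE) and a 95% interval. The groups differed strongly in marker genes of marrow cells, and a bulk sample cannot tell fewer cells of a type from less RNA per cell. The 8 proliferation markers were all called lower in Perthes rabbits, and their summed level was 192.6 to 575 CPM against 1290 to 1362 CPM in controls. The summed level of 11 erythroid markers was 663 to 3002 CPM against 6142 to 6726 CPM, with 2 of the 11 called lower and all 11 without overlap. Macrophage markers summed to 391 to 1306 CPM against 335 to 356 CPM, with 3 of 6 called higher. Neutrophil markers (3 of 6), B cell markers (1 of 4 tested) and megakaryocyte markers (1 of 3) were also called lower, and osteoclast (2 of 7) and stromal markers (2 of 6) higher. Summed cartilage and bone markers, which define the labelled tissue, were high in every library, with cartilage sums from 32803 to 131798 CPM over 5 genes and osteoblast and osteocyte sums from 46050 to 145348 CPM over 7. A single collagen gene made up most of each sum, *COL2A1* at 28995 to 116540 CPM and *COL1A1* at 44646 to 143834 CPM.

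The cholesterol genes differed less between the groups than most genes of the table. None of the 6 passed an adjusted p of 0.05 in edgeR's quasi-likelihood test, and 1, *FDFT1*, had an unadjusted p below 0.05, as did 31.9% of all tested genes. DESeq2 and limma-voom likewise called 0, with 1 below 0.05 unadjusted in each. Among all tested genes, 15.1% were called, 6.21% as higher and 8.87% as lower in Perthes rabbits. With library totals in place of TMM factors the split over all genes moved from 951 higher and 1357 lower to 678 and 1705. These shares depended on single libraries, and 6.79% of all tested genes were called without Perthes rabbit 3, 5.92% without Perthes rabbit 5 and 1.64% without control rabbit 1. Without control rabbit 2, edgeR called 0 genes, with 3722 at an unadjusted p below 0.05, so the 0 calls among the members are read only against the full set of rabbits. In CPM after TMM scaling, every member overlapped between the groups, while 25.2% of all tested genes did not. With library totals in place of TMM factors, *FDFT1* no longer overlapped. The median log2 fold change of the 6 was -0.12, with a median size of 0.14, compared with a median size of 0.42 over all tested genes. For the 5357 genes with mean CPM in the range of the members, from 21.6 to 153 CPM, the median size was 0.36 and 17.3% were called. *FDFT1* had the largest size of the members, 0.40. That size was exceeded by 51.3% of all tested genes but by 45.2% of those in this range, so *FDFT1* was above the median of the latter.

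The intervals show how far the groups could still differ. All 6 had 95% intervals of the log2 fold change that lay between -1 and 1, so that neither a doubling nor a halving was within them. Of all tested genes, 44.4% had such an interval. The lowest bound was a fold of 0.582 for *FDFT1*, and the highest was 1.58 for *SQLE*. Within a group, the spread between rabbits fitted by edgeR (the biological coefficient of variation) was 0.194 to 0.253 for the 6 genes, against a median of 0.292 over all tested genes and 0.244 over those in the same range of CPM.

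**Figure D1:**
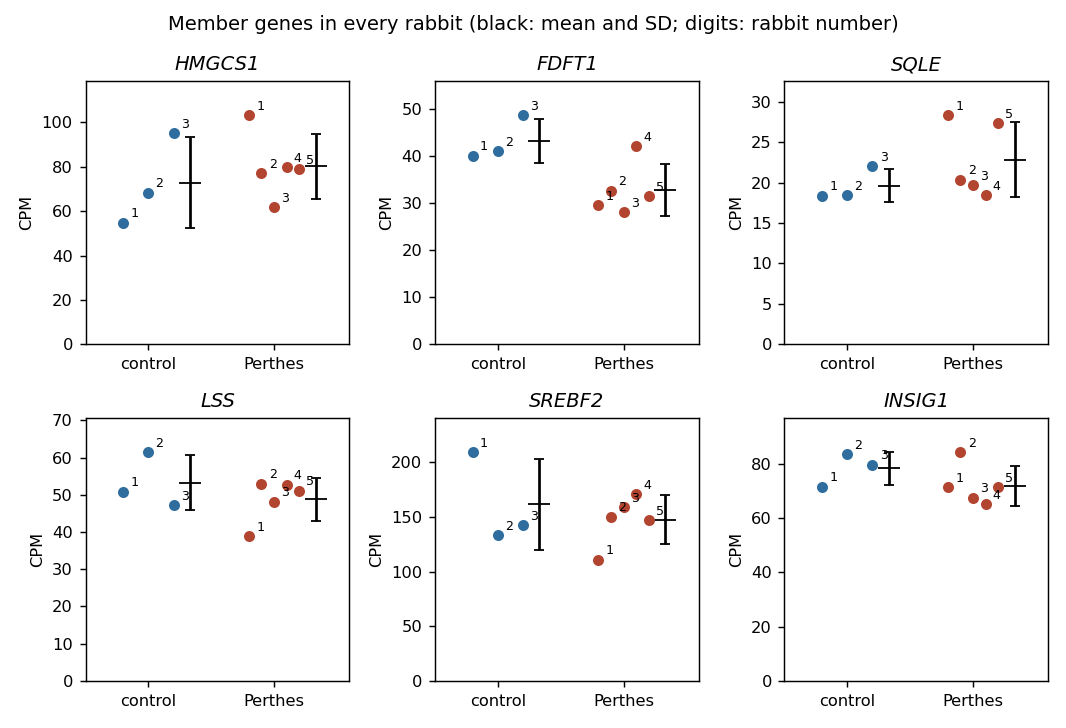
CPM (vertical axes, from 0) of the 6 genes in every control rabbit (blue) and Perthes rabbit (red), with rabbit numbers beside the points and black marks for the mean and SD of each group (n = 3 and n = 5). All 6 panels show overlapping groups, and in *FDFT1* 4 of the 5 Perthes rabbits lie below the lowest control at 40.1 CPM.

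*HMGCS1* (gene 100338744) codes for the cytosolic synthase that forms HMG-CoA. Perthes rabbits 1 to 5 had 103, 77.03, 61.8, 79.9 and 78.9 CPM, and control rabbits 1 to 3 had 54.9, 68.2 and 95.1 CPM. Of the Perthes rabbits, 4 fell within the range of the controls and rabbit 1 lay above it. The means were 80.2 ± 14.8 CPM (SD, n = 5) and 72.7 ± 20.5 CPM (SD, n = 3). In edgeR its log2 fold change was 0.14 (SE 0.22, 95% interval -0.36 to 0.64), and the adjusted p was 0.697. The sign rested on a single library, because without control rabbit 1, the lowest of the 8, it was -0.025.

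*FDFT1* (100345480) codes for squalene synthase, the enzyme at the branch between sterols and the other products of the mevalonate pathway. It had 29.5, 32.6, 28.04, 42.04 and 31.4 CPM in Perthes rabbits 1 to 5 and 40.1, 41.03 and 48.6 CPM in the controls. After TMM scaling, Perthes rabbit 4 was the exception, within the range of the controls, and the other 4 lay below it. The means were 32.7 ± 5.50 CPM (SD, n = 5) and 43.3 ± 4.68 CPM (SD, n = 3), and *FDFT1* had a log2 fold change of -0.40 (SE 0.17, 95% interval -0.78 to -0.02). The unadjusted p was 0.0396, and the adjusted p over all tested genes was 0.135 in edgeR. Without Perthes rabbit 4, edgeR gave a log2 fold change of -0.51 and an adjusted p of 0.0425, while over all 16 alternatives the adjusted p ran from 0.0425 to 0.317. *FDFT1* passed under that alternative and under no other.

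*SQLE* (100356021) codes for squalene epoxidase, an enzyme that needs molecular oxygen. Perthes rabbits 1 to 5 had 28.3, 20.4, 19.7, 18.5 and 27.4 CPM, and the controls had 18.4, 18.5 and 22.01 CPM. Rabbits 1 and 5 stood above all controls, and the other 3 were among them. The means were 22.8 ± 4.62 CPM (SD, n = 5) and 19.6 ± 2.07 CPM (SD, n = 3), and edgeR put the log2 fold change at 0.22 (SE 0.19, 95% interval -0.22 to 0.66) and the adjusted p at 0.465.

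*LSS* (100359315) codes for lanosterol synthase. Its values were 38.96, 53.0, 48.2, 52.7 and 51.2 CPM in Perthes rabbits 1 to 5 and 50.9, 61.5 and 47.3 CPM in the controls. Perthes rabbit 1 was the lowest of the 8 and the other 4 fell within the controls. The means were 48.8 ± 5.82 CPM (SD, n = 5) and 53.2 ± 7.40 CPM (SD, n = 3), which edgeR fitted as a log2 fold change of -0.13 (SE 0.16, 95% interval -0.49 to 0.24) with an adjusted p of 0.624.

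*SREBF2* (100008783), the gene of SREBP2 itself, had 111, 150.2, 159, 171 and 147 CPM in Perthes rabbits 1 to 5 and 209, 133 and 142 CPM in the controls. Control rabbit 1 had the highest level and Perthes rabbit 1 the lowest, with the other 6 rabbits in between. The means were 148 ± 22.5 CPM (SD, n = 5) and 162 ± 41.6 CPM (SD, n = 3). The log2 fold change in edgeR was -0.13 (SE 0.21, 95% interval -0.60 to 0.34, with an adjusted p of 0.697), and it turned to 0.10 without control rabbit 1.

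*INSIG1* (100353280), which is itself switched on by SREBP2, had 71.4, 84.2, 67.4, 64.9 and 71.2 CPM in Perthes rabbits 1 to 5 and 71.5, 83.4 and 79.6 CPM in the controls. In 4 Perthes rabbits it was below the lowest control, in rabbits 1 and 5 by a narrow margin, and in rabbit 2 it was above the highest. It was the most even of the members, since its highest value was 1.30 times its lowest over the 8 rabbits, against 1.54 to 1.89 times for the other 5. The means were 71.8 ± 7.43 CPM (SD, n = 5) and 78.2 ± 6.07 CPM (SD, n = 3), for a log2 fold change of -0.12 (SE 0.14, 95% interval -0.45 to 0.20) and an adjusted p of 0.593 in edgeR.

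Exact two-sided permutation tests on log2 CPM, over the 56 divisions of the rabbits into 5 and 3, were made for each of the 6 genes. The p-values ran from 0.107 for *FDFT1* to 0.607 for *SREBF2* (exact permutation test, unadjusted), where 0.0357 is the smallest the design allows.

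High and low members stood side by side in the same rabbit. In Perthes rabbit 1, *HMGCS1* and *SQLE* stood 0.44 and 0.41 above their own means over the 8 rabbits on the log2 scale, while *SREBF2*, *LSS* and *FDFT1* stood at -0.44, -0.36 and -0.29. In control rabbit 1 these genes stood the other way, with *SREBF2* at 0.48 and *HMGCS1* at -0.47. The median over the 6 genes stayed between -0.17 and 0.08 in all libraries, and their summed level was 382 to 429 CPM in Perthes rabbits and 406 to 445 CPM in controls.

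**Figure D2:**
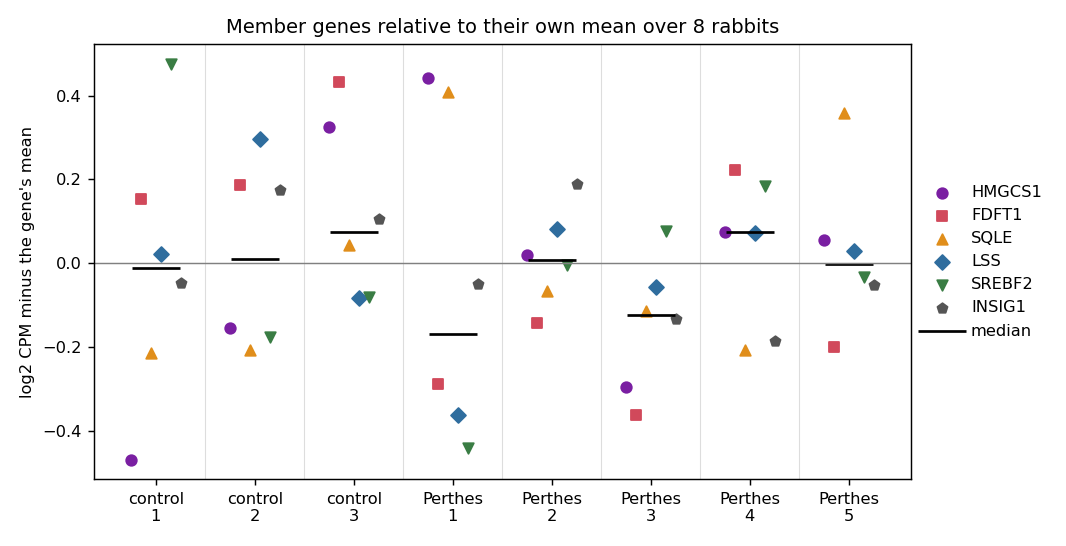
For each of the 8 rabbits (horizontal axis), log2 CPM of each member minus its mean over all rabbits (vertical axis), with a black bar for the median of the 6 genes. The medians stay between -0.17 and 0.08 while single genes spread in both directions, most widely in control rabbit 1 and Perthes rabbit 1.

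As the median profile was nearly flat, the genes most like it were flat as well. By the root mean square difference of centred log2 CPM over the 8 libraries, the 5 named genes nearest to it were *TSR2* (0.0660), *NBR1* (0.0689), *POFUT1* (0.0704), *PABPC4* (0.0705) and *MKRN2* (0.0724), where the median tested gene was at 0.432. Of the members themselves, *INSIG1* was the closest at 0.135 and *HMGCS1* the farthest at 0.297.

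Ratios of counts within a library do not depend on scaling, and show whether enzymes of the same route kept their proportions. None of the 15 ratios between members separated the groups. The 3 ratios described next were picked after the values were seen. The ratio of *FDFT1* to *SQLE* was 2.18, 2.22 and 2.21 in control rabbits 1 to 3 and 1.04, 1.60, 1.42, 2.28 and 1.15 in Perthes rabbits 1 to 5. The coefficient of variation among the 3 controls, 0.955%, was the smallest of the 15 ratios, which ranged up to 42.6%. Counting error alone was 4.68% to 5.32% for each of these controls, so their closeness is finer than the counts can resolve. Of the Perthes rabbits, 4 were lower than the controls and rabbit 4 was slightly higher. Among the 5 Perthes rabbits the coefficient of variation was 32.6%. For *HMGCS1* over *FDFT1*, the Perthes rabbits ranged from 1.90 to 3.50 and the controls from 1.37 to 1.96, so that rabbit 4 alone was below the highest control. *LSS* over *SREBF2* had the narrower range in the Perthes rabbits, with 0.303 to 0.353 in the 5 Perthes rabbits and 0.243 to 0.462 in the 3 controls.

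**Figure D3:**
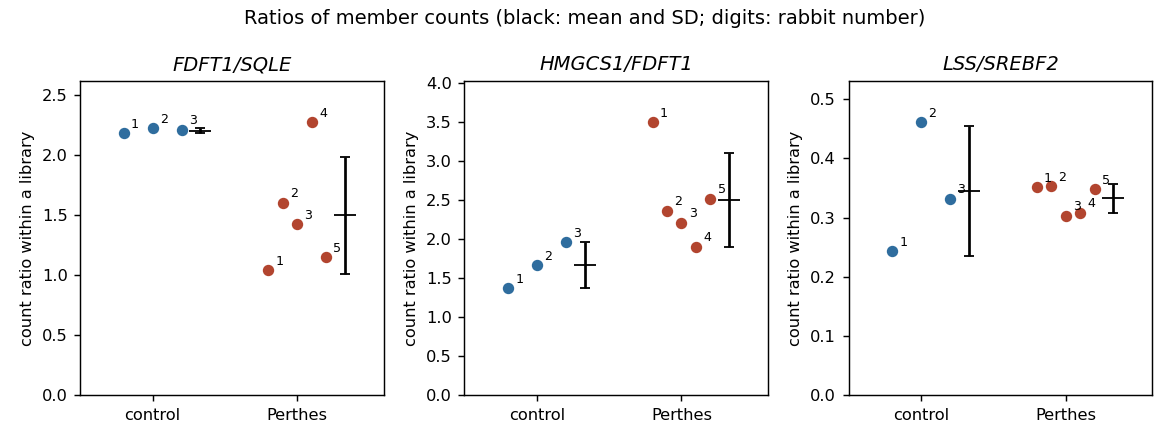
Count ratios within each library (vertical axes, from 0) for 3 pairs of members, in control rabbits (blue) and Perthes rabbits (red), with rabbit numbers and black marks for the mean and SD. The controls lie at 2.18 to 2.22 for *FDFT1* over *SQLE*, and the Perthes rabbits spread from 1.04 to 2.28.

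Of the other genes of cholesterol synthesis reported here, 13 were found in the table, and edgeR called 0 of them, with 2 at an unadjusted p below 0.05. DESeq2 called 1, limma-voom 0, and edgeR 1 without Perthes rabbit 4, which in both cases was *SC5D* as higher. The median log2 fold change of the 13 was 0.20, or 0.068 without control rabbit 3, against 0.02 over all tested genes, and 8 were above 0. In 9 of them the 95% interval lay within -1 and 1. *SC5D*, the sterol desaturase of a late step, had the highest at 0.77 (SE 0.25, and 0.0697 for the adjusted p in edgeR), with 22.0 to 42.2 CPM in Perthes rabbits and 14.6 to 21.4 CPM in controls. The lanosterol demethylase *CYP51A1*, listed as LOC100355623, had a log2 fold change of 0.41 and an adjusted p of 0.133.

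Among 9 genes of the isoprenoid branch, which uses farnesyl diphosphate for other products, *DHDDS* was called and 8 were not. *DHDDS* (100358963) codes for a subunit of the prenyltransferase that builds dolichol, the lipid carrier of sugars for protein glycosylation. Its level was 732 ± 253 CPM in the controls (SD, n = 3) and 236 ± 43.9 CPM in the Perthes rabbits (SD, n = 5). The highest Perthes rabbit, at 283 CPM, was below the lowest control, at 583 CPM. *DHDDS* thus fell by 1.63 on the log2 scale (SE 0.25) at an adjusted p of 0.0118 in edgeR, which became 0.0519 without control rabbit 2. *NUS1*, which codes for the other subunit, was at 0.55 with an adjusted p of 0.217. Erythroid, neutrophil, megakaryocyte, B cell and proliferation markers were also lower in Perthes rabbits, and their part in the fall of *DHDDS* was not tested.

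Among 12 genes that process SREBP and sense sterols, 1 was called and 10 had a log2 fold change above 0. *MBTPS2* (100344858), the protease that cuts SREBP within the Golgi membrane, had 15.8 ± 4.63 CPM in controls (SD, n = 3) and 30.3 ± 7.81 CPM in Perthes rabbits (SD, n = 5). It rose by 0.94 on the log2 scale (SE 0.27) with an adjusted p of 0.0439 in edgeR, and the groups did not overlap. This call was lost with Perthes rabbit 1, 3 or 5 or control rabbit 1 or 2 left out, with adjusted p-values of up to 0.147, and with library totals in place of TMM factors (0.0834). The escort *SCAP* was at -0.17, with an adjusted p of 0.548. *INSIG2*, the relative of *INSIG1*, was at 0.38, with an adjusted p of 0.246 although its groups did not overlap. *SREBF1*, which codes for the related factor SREBP1, was at 0.07 with an adjusted p of 0.843. The list had a median of 0.27, and in 10 of 12 genes the 95% interval lay within -1 and 1.

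More calls fell among the genes for taking up lipoproteins and releasing their cholesterol from lysosomes. Of the 12 genes found and reported here, 3 were called higher and 2 lower. *VLDLR*, the receptor for very low density lipoprotein, had 12.7 to 34.2 CPM in controls and 54.2 to 91.5 CPM in Perthes rabbits, a rise of 1.48 on the log2 scale (SE 0.33) with an adjusted p of 0.0216 in edgeR. *NPC1*, which moves cholesterol out of the lysosome, had 48.3 to 55.2 CPM and 80.1 to 141 CPM, a rise of 1.17 (SE 0.22) with an adjusted p of 0.0138. Both calls were lost without control rabbit 1 or 2, and that of *VLDLR* also without Perthes rabbit 5, with adjusted p-values of up to 0.0585 for *VLDLR* and 0.0611 for *NPC1*.

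*LIPA*, the lysosomal acid lipase that splits cholesterol esters, had 910, 426, 520, 83.7 and 678 CPM in Perthes rabbits 1 to 5 and 81.6, 85.4 and 80.4 CPM in the controls. It rose by 2.67 on the log2 scale (SE 0.64), and its adjusted p in edgeR was 0.0262, although rabbit 4 was at the level of the controls. *SCARB1*, the receptor for high density lipoprotein, and *STARD4*, a cytosolic sterol carrier, fell by 0.69 and 0.75 (adjusted p = 0.0279 and 0.0479 from edgeR). Both were lower in every Perthes rabbit than in any control. These 3 calls were lost without Perthes rabbit 3 or 5 or any 1 of the controls, with adjusted p-values of up to 0.101 for *LIPA*, 0.0968 for *SCARB1* and 0.138 for *STARD4*. That of *STARD4* was also lost with library totals (0.0502) and with no low-count filter (0.0585).

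Export and esterification held the largest share of calls, 7 of 11 tested genes, with 5 higher and 2 lower and a median log2 fold change of 1.21. *PLTP*, which codes for a phospholipid transfer protein, rose by 2.41 on the log2 scale (SE 0.46) with an adjusted p of 0.0142 in edgeR, and every Perthes rabbit was above every control. *APOE*, which codes for an apolipoprotein that macrophages release with cholesterol, rose by 2.33 (SE 0.55, with an adjusted p of 0.0254), and Perthes rabbit 4, at 34.4 CPM, was below control rabbit 2, at 41.6 CPM. *SOAT1*, which codes for an enzyme that makes cholesterol esters, rose by 1.47 (SE 0.33, with an adjusted p of 0.0218) without overlap. The exporters *ABCA1* and *ABCG1*, named after their values were seen, rose by 1.21 and 1.36 (adjusted p = 0.0443 and 0.0444 from edgeR). These calls passed in 8 and 7 of 16 alternatives. Both were lost with library totals, with the replicate number as a block, and without Perthes rabbit 1, 3 or 5 or any 1 control. That of *ABCG1* was also lost in limma-voom. Over all 16 alternatives their adjusted p-values reached 0.172 and 0.145. *NCEH1*, a hydrolase of cholesterol esters, had 64.5 ± 3.43 CPM in controls (SD, n = 3) and 28.4 ± 5.84 CPM in Perthes rabbits (SD, n = 5). *LPCAT3*, which remodels phospholipids, had 77.97 ± 6.53 CPM and 36.2 ± 7.06 CPM. Their log2 fold changes were -1.19 and -1.11 (adjusted p = 0.0118 and 0.0123 from edgeR), and neither gene overlapped between the groups. The calls of *PLTP*, *APOE*, *SOAT1*, *NCEH1* and *LPCAT3* were all lost without control rabbit 2, and all but that of *NCEH1* without control rabbit 1. Those of *SOAT1* and *APOE* were also lost without Perthes rabbit 5, and that of *APOE* without Perthes rabbit 3 or control rabbit 3. With rabbits left out, the adjusted p-values of the lost calls reached 0.105, for *APOE* without control rabbit 1. With the replicate number as a block, all of these calls were lost, and the adjusted p reached 0.131, for *SOAT1*. Under that block edgeR called 0 of all tested genes, so the loss is not particular to these genes.

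**Figure D4:**
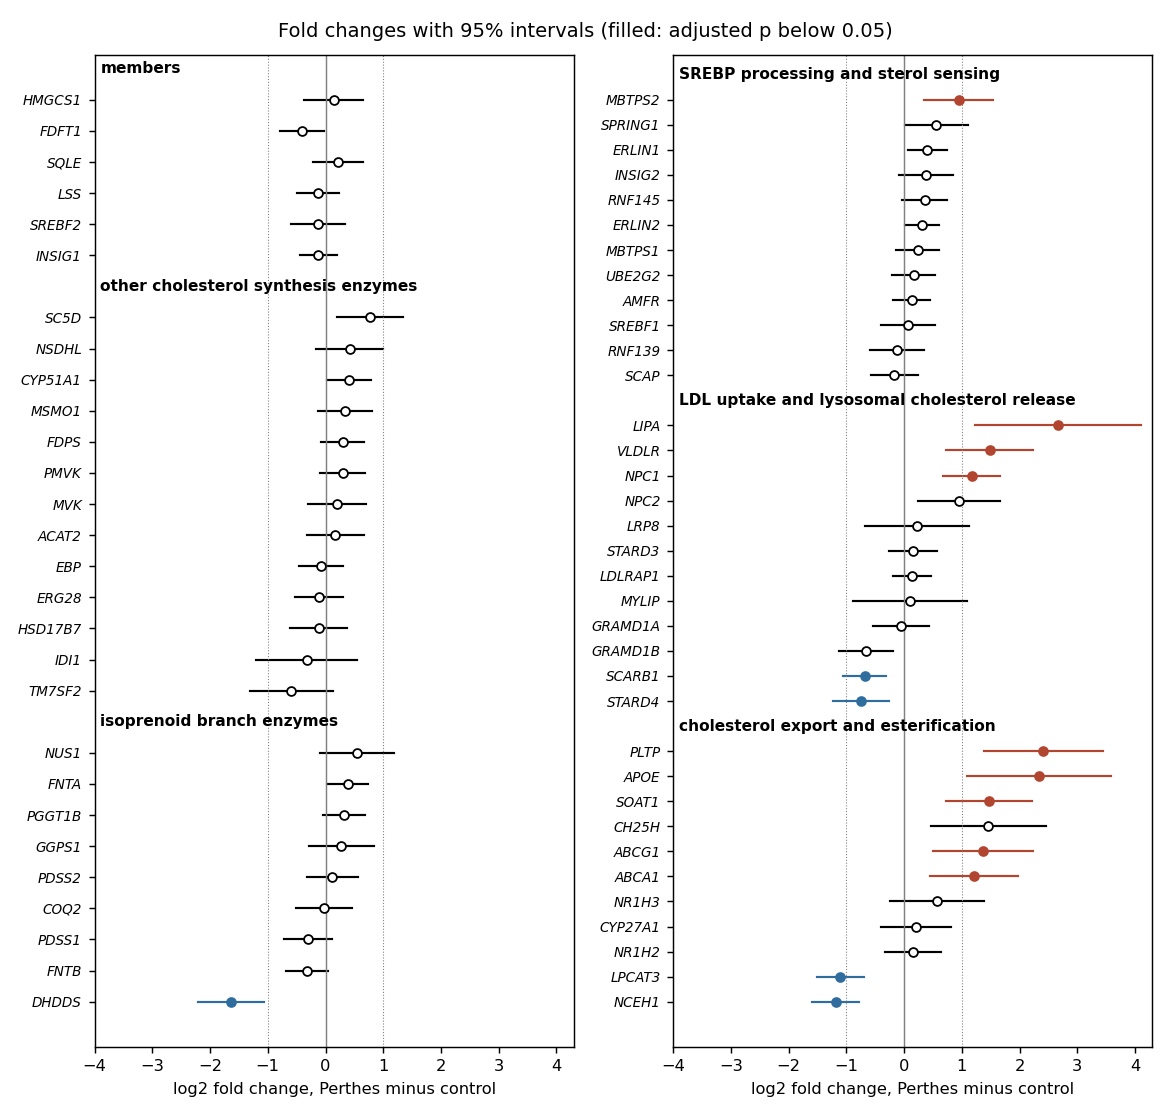
Log2 fold changes, Perthes minus control (horizontal axes), with 95% intervals for the 6 members and for 5 lists of related genes, where filled points have an adjusted p below 0.05 and dotted lines mark -1 and 1. The members lie from -0.40 to 0.22 with no filled point, and the export and esterification genes reach 2.41.

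The summed level of the export genes, to which *ABCA1* and *PLTP* contributed most and in which *NCEH1* and *LPCAT3* fell, put the 5 Perthes rabbits in the same order as macrophage markers did. The summed level of the 12 export genes found was 1291, 861, 1006, 442 and 1065 CPM in Perthes rabbits 1 to 5 and 408 to 483 CPM in the controls, so that rabbit 4 was among the controls. Neither *ABCA1* nor *PLTP* had the order of this sum by itself. *ABCA1* was highest in rabbit 5, at 394 CPM against 391 CPM in rabbit 1. *PLTP* was lower in rabbit 5, at 221 CPM, than in rabbits 2 and 3, at 238 and 252 CPM. Macrophage markers summed to 1306, 780, 985, 391 and 1203 CPM in Perthes rabbits 1 to 5 against 335 to 356 CPM in the controls. The summed uptake and lysosomal genes had that order as well, and their sum in rabbit 4, 569 CPM, was above the 524 to 549 CPM of the controls. *LIPA*, the largest part of that sum in Perthes rabbits 1, 2, 3 and 5, had the same order by itself. The order of the uptake and lysosomal sum therefore need not hold for its other genes. The called markers were *CD68* at 2.02, *CSF1R* at 1.07 and *MRC1* at 1.96 on the log2 scale, *MARCO* was at -2.19 with an adjusted p of 0.0542, and none of the 6 was at 0 in any library. *CD163* and *ADGRE1* were at 0.19 and 0.31, with adjusted p-values of 0.740 and 0.734. Their part in the rise of the export and lysosomal genes was not tested. The summed level of the members was lowest, at 382 CPM, in Perthes rabbit 1, which had the highest sum of macrophage markers. Among Perthes rabbits this summed level was highest in rabbit 4, at 429 CPM. *SREBF2* was the largest part of it in both rabbits. *SREBF2*, *LSS* and *FDFT1* were lower in rabbit 1 (111, 38.96 and 29.5 CPM) than in rabbit 4 (171, 52.7 and 42.04 CPM). *HMGCS1*, *SQLE* and *INSIG1* were higher in rabbit 1 (103, 28.3 and 71.4 CPM) than in rabbit 4 (79.9, 18.5 and 64.9 CPM). A link between the members and macrophage markers was not tested.

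**Figure D5:**
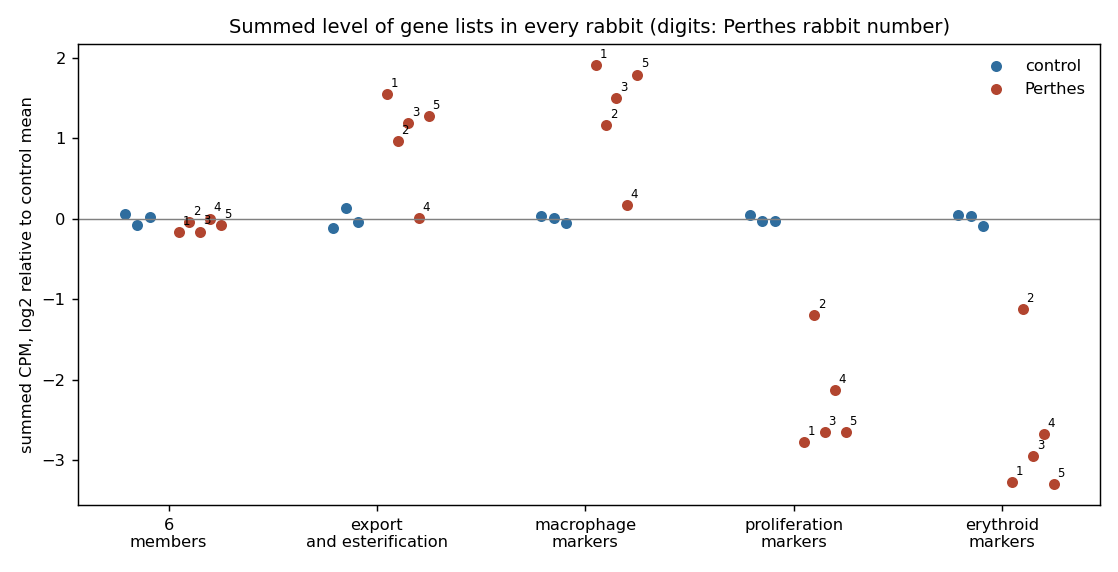
Summed CPM of 5 gene lists in every rabbit, as log2 relative to the mean of the controls (vertical axis), for control rabbits (blue) and Perthes rabbits (red, numbered). The members stay close to 0, at 382 to 429 CPM in Perthes rabbits, while 4 of 5 Perthes rabbits lie above the controls in export genes, all 5 in macrophage markers, and all 5 lie below them in proliferation and erythroid markers.

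Across the 6 lists of related genes, with that of fatty acid synthesis included, 9 of 69 tested genes (13.0%) were called higher and 5 (7.25%) lower, where 6.21% and 8.87% of all tested genes were. As for all genes, these calls depended on several libraries. They became 9 and 8 without Perthes rabbit 2, 4 and 3 without Perthes rabbit 3, 2 and 3 without Perthes rabbit 5, 0 and 2 without control rabbit 1, and 5 and 3 without control rabbit 3. Without control rabbit 2, edgeR called 0 and 0, with 13 and 6 at an unadjusted p below 0.05.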

How the data were processed

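Ribosomal RNA was removed from total RNA of 5 Perthes and 3 control rabbits before directional library preparation. Reads were cleaned by SOAPnuke 1.5.2 and aligned by HISAT2 2.0.4, while RSEM 1.1.17 and HTSeq 1.99.2 are named for quantification. The deposited gene values are unnormalized expected counts, of which up to 10.7% in a library were not whole, and these were rounded. A further 8 columns of per-sample values repeat the 8 used and were left out. The small RNA table was not analysed here.

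Genes were filtered with filterByExpr, scaled by TMM and tested by quasi-likelihood in edgeR 4.0.16 (R 4.3.3). Benjamini-Hochberg adjustment covered 15305 genes, and a call is an adjusted p below 0.05. The SE is the log2 fold change divided by the root of the F statistic. Log2 CPM used a prior count of 2. Alternatives used DESeq2 1.42.0 and limma 3.58.1 (voom), other scalings and filters, unrounded counts, a block for the replicate number, and the omission of single rabbits. The scripts were tested on simulated counts, with a single spread for all genes that was smaller than the common spread edgeR fitted to the data. That test was therefore easier than the data. Exact permutation tests used scipy 1.17.1. The labels number replicates without stating that each is a separate animal, so p-values measure the spread between these samples, which are called rabbits here.

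The members and the gene lists were chosen with earlier results of these data known. Genes named were the members, up to 5 called genes per list by adjusted p, genes needed to describe the route, and the 5 most like the members. Some genes of the lists are not reported here, and counts and sums over the lists leave them out. Of the 167 remaining entries, 153 were found, 3 of them through RefSeq gene IDs. No sequences or coordinates are given.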

Additional observations from a re-analysis of the deposited data

How the results depend on the processing

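The 6 member log2 fold changes were recomputed under 16 alternatives, which gave 96 values, and 93 kept their direction and their side of the threshold. With each rabbit left out in turn, the log2 fold change ran from -0.025 to 0.38 for *HMGCS1*, from -0.25 to 0.10 for *SREBF2* and from -0.51 to -0.31 for *FDFT1*, and the number of members called lower was 0 to 1. The cause of the turned signs, which arose without control rabbit 1, was not tested. With library totals alone, the difference of *FDFT1* in mean log2 CPM was -0.50 and its exact permutation p was 0.0357, the smallest possible. Here that value means that every Perthes rabbit lay below every control, so the overlap of *FDFT1* rested on the scaling. For the 6 lists, genes called numbered 0 to 13 higher and 0 to 8 lower with rabbits left out. The 12 list genes named by rule were picked because edgeR called them in the full set of rabbits. Of their 192 values over the alternatives, 138 passed the threshold, 54 did not, and 0 changed direction. *ABCA1* and *ABCG1* are not among these 12, and passed in 8 and 7 of 16 alternatives. DESeq2 called 1720 genes higher and 1916 lower over all genes, against 951 and 1357 in edgeR.

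The replicate numbers showed no sign of pairing the rabbits. Same-numbered rabbits deviated from their group means with correlations of -0.317, 0.161 and -0.238, and not every rabbit correlated best with its own number. With so few same-numbered rabbits, this check cannot exclude a pairing. With the replicate number as a block, edgeR called 0 of all 15305 tested genes, with 3152 at an unadjusted p below 0.05. The 0 calls in the lists therefore say nothing about the lists themselves. In them, 11 genes were higher and 9 lower at an unadjusted p below 0.05. Perthes rabbits 4 and 5 have no control of the same number, so the block fit compares only the other rabbits. Its log2 fold changes for *HMGCS1*, *FDFT1*, *SQLE*, *LSS*, *SREBF2* and *INSIG1* were 0.16, -0.52, 0.20, -0.19, -0.19 and -0.08. The value for *FDFT1* thus leaves out Perthes rabbit 4, which lay within the range of the controls.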

Other observations

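Genes of fatty acid synthesis and desaturation, many of which are switched on by the related factor SREBP1, were not called by edgeR in the full set of rabbits. Of 15 such genes, 12 were found and tested, and edgeR called 0, with 1 at an unadjusted p below 0.05. DESeq2 called 1 of them, *ACACB*, as lower, and limma-voom 0. Without Perthes rabbit 2, edgeR called 3 of them lower, *ACACB*, *ACSS2* and *THRSP*, which were named after their values were seen, with 4 lower at an unadjusted p below 0.05. Over all tested genes, leaving out that rabbit gave 1628 lower calls, against 1357 in the full set, and 16.9% were called in either direction. In the full set, the median log2 fold change of the 12 was -0.25. Of the 12, 6 had a 95% interval within -1 and 1, against 6 of 6 cholesterol genes. *ACACA*, the acetyl-CoA carboxylase of cytosolic synthesis, was at 122 ± 4.56 CPM in the Perthes group (SD, n = 5) and 113 ± 21.4 CPM in the controls (SD, n = 3). *ACACB*, the carboxylase bound to mitochondria, was at 58.7 ± 65.7 CPM and 244 ± 195 CPM, with a log2 fold change of -2.05 and an adjusted p of 0.103 in edgeR. *ME1*, which supplies NADPH, was at 1.16 with an adjusted p of 0.160. Adipocyte markers varied widely too, with summed levels of 129 to 1466 CPM in Perthes rabbits and 477 to 1429 CPM in controls, and their part in these values was not tested.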
